A study of Mus musculus with 9 samples.

Results

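The 39 mouse Hox genes, a family of transcription factors that records where along the body a cell arose, were followed across 3 tissues of the lower body. They were taken as every gene symbol made of Hoxa, Hoxb, Hoxc or Hoxd and a number, with antisense transcripts left out, and are 39 of the 22609 genes counted in each library. RNA came from dorsal root ganglia (DRG) at levels L3 to L5, where the cell bodies of sensory neurons sit, from the lumbar part of the spinal cord, and from punch biopsies of hind paw. All 9 samples, 3 of each tissue, came from male C57 mice aged 8 to 12 weeks that had received paclitaxel, a chemotherapy drug that binds microtubules, at 2 mg/kg in 2 intraperitoneal injections. Each was also given a blocker of lymphotoxin beta receptor (LTβR antagonist), 15 µg into the hind paw and 15 µg into the spinal canal, on days 1 and 4 by the sample titles, whereas the series text places it between and 1 day after the paclitaxel doses. Tissue was taken 6 days after the last paclitaxel dose. Samples without the antagonist are not analysed here, so only tissues can be compared, and neither agent's effect was tested. Since no label states that each sample is a different mouse, the p-values speak to sample-to-sample spread, which may be technical.

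Hox genes encode homeodomain proteins that bind DNA, mostly together with partner proteins of the Pbx, Meis and Prep families, and switch on the programme of a body level. They lie in clusters named A to D in which the order of the genes on the chromosome matches the order in which they are used from head to tail, and genes of the same number in different clusters, called paralogs, descend from a common ancestor. Low numbers serve the hindbrain and neck, middle numbers the trunk, and the highest numbers the tail end of the trunk and the outer parts of the limbs, and many adult cells, among them skin fibroblasts and spinal neurons, keep part of the pattern they had in the embryo.

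Each library held 15537545 to 23229724 reads assigned to genes, so that 3 reads, taken as the floor of detection, equalled 0.134 to 0.185 CPM, the usual read count scaled by sequencing depth. The tissue labels were checked on marker genes. All 6 sensory neuron markers summed to 3306 to 3917 CPM in ganglia and 14.1 to 23.9 CPM in cord. The 4 oligodendrocyte markers summed to 1451 to 1782 CPM in cord and 1.16 to 1.93 CPM in ganglia, and the 4 spinal neuron markers to 383 to 469 CPM in cord and 1.34 to 1.69 CPM in ganglia, where Slc6a5 had 0 reads in every library. The 5 keratinocyte markers summed to 32659 to 49494 CPM in paw and 12.6 to 29.0 CPM elsewhere, and paw also held 12557 to 16163 CPM of 5 skeletal muscle markers. Spinal cord sample 3 stood apart in fibroblast markers, at 791 CPM against 263 and 326 CPM in the other cord samples.

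Hox RNA was most abundant in spinal cord, lower in ganglia and lowest in paw. The 39 genes together made up 1072 ± 88.4 CPM in cord, 333 ± 25.5 CPM in ganglia and 227 ± 7.21 CPM in paw (SD, n = 3), and the ranges of the tissues did not overlap. In cord 37 of the 39 genes had at least 10 reads in every library. In ganglia 31 did, and 4 genes (Hoxa13, Hoxc12, Hoxd12 and Hoxd13) had 0 reads in all 3 libraries, which allows up to 0.0474 CPM over the group. In paw 32 genes had 10 reads in every library. Ranked by mean CPM, 22 genes followed the order cord, ganglia, paw and 8 the order cord, paw, ganglia. Ganglia came first for 4 genes, Hoxc5, Hoxc6 and Hoxd1 among them, and paw for 5 (Hoxa9, Hoxa13, Hoxc9, Hoxd12 and Hoxd13). These orders rest on means alone. Hoxb1 and Hoxd12 were too low to test, and for genes such as Hoxc5, Hoxc6 and Hoxc9 the first 2 tissues were not called different below. In such bulk samples fewer cells of a type and less RNA per cell cannot be told apart.

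**Figure D1:**
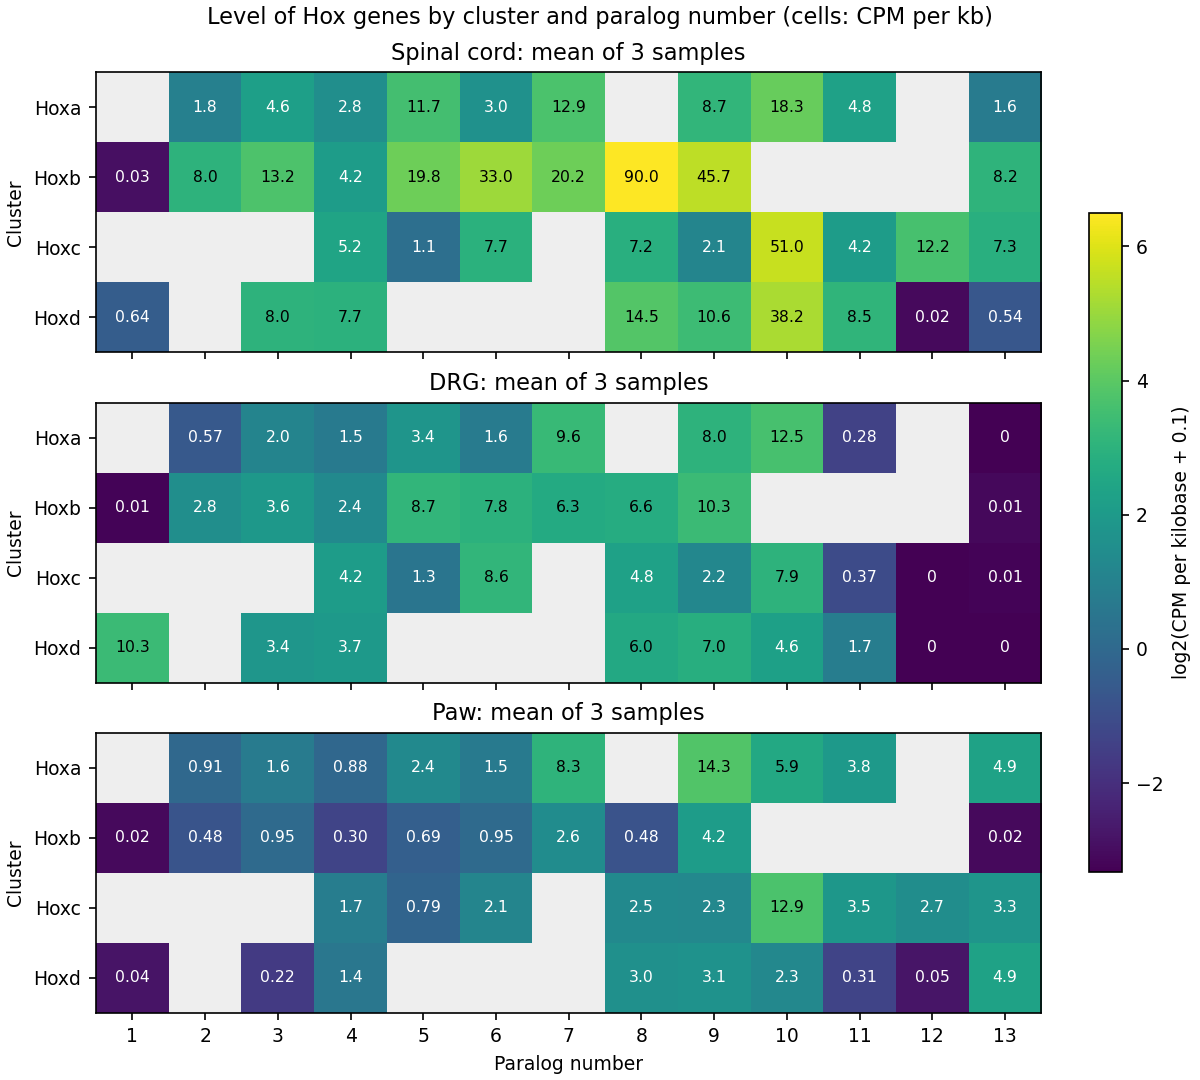
Mean level of Hox genes (CPM per kilobase of transcript, number in the cell and colour on a log2 scale with 0.1 added) by cluster (rows) and paralog number (columns) in each tissue, n = 3 samples; grey cells hold no gene or none reported here. Cord is highest at Hoxb8 (90.05), ganglia are at or near 0 in columns 12 and 13, and in paw the Hoxb row is dim while Hoxa9 (14.3) and Hoxc10 (12.9) lead.

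Levels of different genes were compared per kilobase of transcript. The highest genes in cord were Hoxb8 at 90.05 ± 13.1 CPM per kilobase, Hoxc10 at 51.0 ± 6.77, Hoxb9 at 45.7 ± 2.75, Hoxd10 at 38.2 ± 4.35 and Hoxb6 at 33.0 ± 1.78 (SD, n = 3). Ganglia had a flatter profile, led by Hoxa10 at 12.5 ± 1.51, Hoxb9 at 10.3 ± 1.23, Hoxd1 at 10.3 ± 1.98 and Hoxa7 at 9.60 ± 0.626 CPM per kilobase, neighbours that lay within their spread. In paw, Hoxa9 at 14.3 ± 2.83 and Hoxc10 at 12.9 ± 2.33 CPM per kilobase lay within their spread, ahead of Hoxa7 at 8.30 ± 0.676 and Hoxa10 at 5.91 ± 1.59. Hoxb8 led in all 3 cord samples and Hoxa10 in all 3 ganglion samples, while Hoxa9 led in paw samples 1 and 2 and Hoxc10 in paw sample 3.

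The tissues differed in which end of the clusters their Hox RNA came from. Weighted by reads per kilobase, the mean paralog number was 6.63 to 6.84 in ganglia, 7.88 to 8.00 in cord and 8.90 to 8.93 in paw. Paralogs 9 to 13 held 33.3 to 37.5% of the Hox signal in ganglia, 44.1 to 44.9% in cord and 66.1 to 68.4% in paw. Paralogs 1 to 3 held 14.8 to 15.5% in ganglia, 6.85 to 7.84% in cord and 4.02 to 4.53% in paw. The 3 tissues thus did not overlap in any of these measures. No test was made of these scores, which sum over genes chosen together. They are shares of a Hox total that was lowest in paw, and are not levels. Of the 15 tested genes numbered 9 to 13, 9 were lower and 3 higher in paw than in cord. Over all genes tested these shares were 41.7% lower and 39.9% higher. The ganglion share of paralogs 1 to 3 drew heavily on Hoxd1, at 10.3 CPM per kilobase there. Paralogs 2 and paralogs 3 each summed to less in ganglia, 3.39 and 9.13 CPM per kilobase. Of the 7 tested genes numbered 1 to 3, 5 were lower in ganglia than in cord, beside 30.6% of all genes tested.

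Clusters shared the signal unevenly as well. HoxB gave 47.3 to 50.1% of the Hox signal in cord, 30.2 to 33.1% in ganglia and 10.1 to 11.1% in paw. The HoxA share ran the other way, at 13.6 to 14.7% in cord, 25.3 to 26.7% in ganglia and 41.5 to 44.6% in paw. This was a larger share of a smaller total, since 8 of 11 HoxA genes were lower in paw than in cord and 2 higher. Over all genes tested 41.7% were lower and 39.9% higher in paw than in cord. HoxC held 18.9 to 19.2% in ganglia, 19.2 to 20.2% in cord and 30.1 to 33.0% in paw. HoxD held 14.4 to 15.4% in paw, 17.0 to 18.7% in cord and 20.9 to 25.5% in ganglia, the last with the high Hoxd1 in it. Within paralog groups this meant a change of leading gene. In cord the HoxB gene was the highest of its group in all 3 samples for numbers 2, 3, 5, 6, 7, 8 and 9. Hoxb13 and Hoxc13 lay within their spread there, and Hoxc13 was the higher in cord sample 2. In paw no HoxB gene led its group from number 2 on. The lead lay in all 3 paw samples with HoxA for 2, 3, 5, 7 and 9, with HoxC for 4, 10 and 12, and with HoxD for 8, while for 6 (Hoxc6 and Hoxa6), 11 (Hoxa11 and Hoxc11) and 13 (Hoxd13 and Hoxa13) the leading gene differed between paw samples.

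**Figure D2:**
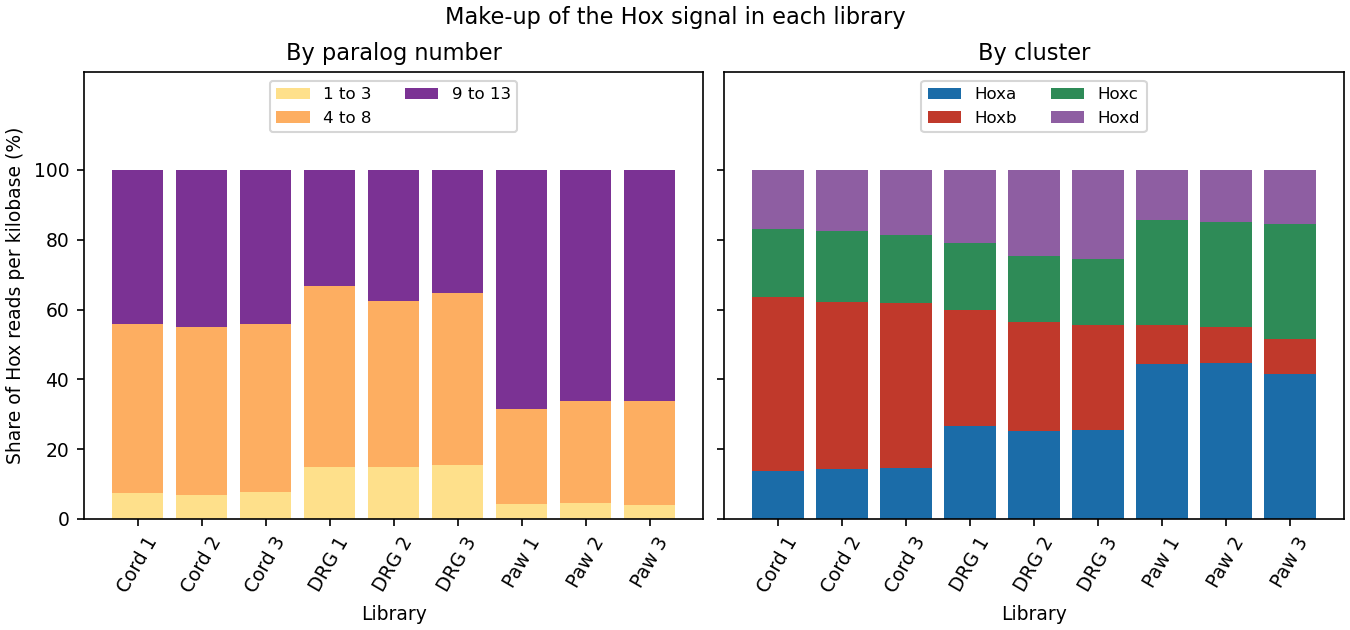
Share of the Hox signal (reads per kilobase, %, y axis) in each of the 9 libraries (x axis), split by paralog number on the left and by cluster on the right. Paralogs 9 to 13 hold 66.1 to 68.4% in the 3 paw libraries against 33.3 to 37.5% in ganglia, and HoxB holds 10.1 to 11.1% in paw against 47.3 to 50.1% in cord.

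Differences between tissues were tested with edgeR's quasi-likelihood test across 16091 genes, and called at a Benjamini-Hochberg adjusted p under 0.05. Log2 fold changes are given ± SE, for the first tissue named against the second. Of the 39 Hox genes 37 could be tested. Hoxb1, a hindbrain gene, had at most 3 reads in any library and Hoxd12 at most 4, so neither was detectable as different at this depth. In ganglia against cord 1 Hox gene was called higher and 30 lower of the 37 tested, where 59.6% of all genes tested were called, 29% higher and 30.6% lower. In paw against ganglia 9 were higher and 23 lower, with 80.5% of all genes called, 39.7% higher and 40.8% lower. In paw against cord 3 were higher and 31 lower, with 81.6% of all genes called, 39.9% higher and 41.7% lower. Median log2 fold changes of the tested Hox genes were -1.27, -1.02 and -1.86 in these comparisons, and stayed so with genes at or near 0 reads set to their bounds, while the medians over all genes tested were -0.02, -0.02 and -0.03. Sample values of the compared tissues did not overlap for 30, 32 and 34 of the 37, against 64.5%, 83.4% and 83.5% of all genes. The comparisons share samples and are therefore not independent of each other.

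**Figure D3:**
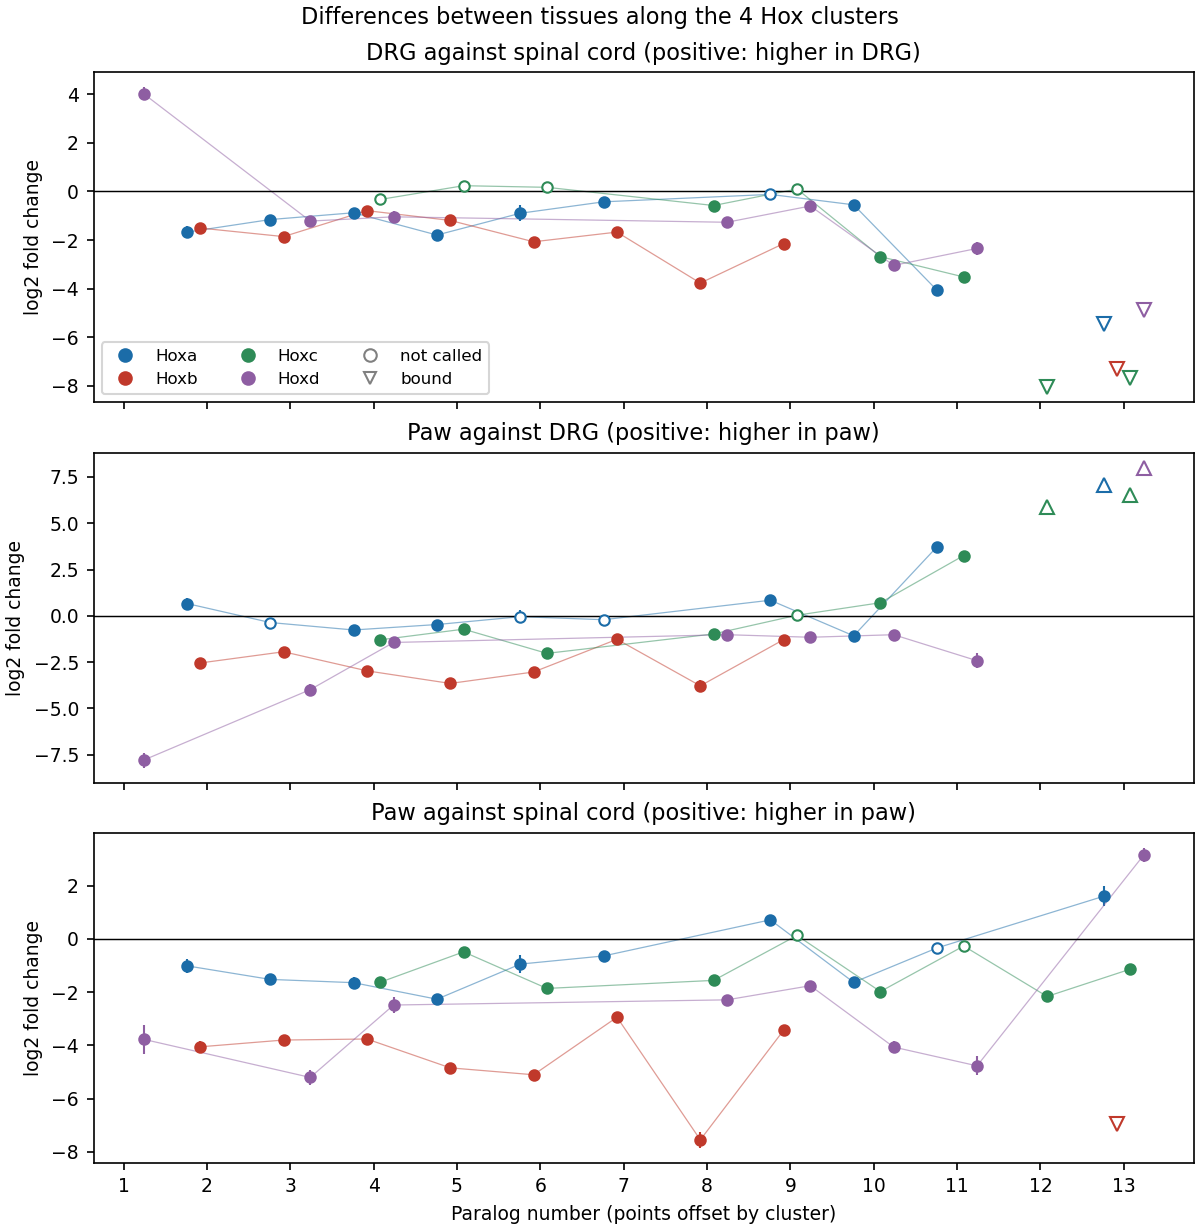
Log2 fold change (y axis; circles with SE from the edgeR fit) of the tested and reported Hox genes by paralog number (x axis) and cluster (colour) in the 3 tissue comparisons. Filled circles are called, open circles are not, and triangles mark genes with 0 to 3 reads in a tissue, drawn at the bound against 3 reads or at the near end of the 95% counting interval. Hoxd1 is the one filled circle above 0 in ganglia against cord (4.02), and the called paralogs 11 to 13 lie below 0 there and above 0 in paw against ganglia, Hoxd11 excepted.

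The sequences just before the start of transcription are shown for Hoxb8, which had the highest level per kilobase in every cord sample, for Hoxd1, the one gene called higher in ganglia than in cord, and for Hoxa13 and Hoxd13, which were both highest in paw and at 0 reads in ganglia. Each is the 250 bases upstream of the start, 5′ to 3′ on the gene's strand, from RefSeq on GRCm38.p6, and capitals mark CG dinucleotides, the sites of DNA methylation. They lie at chr11:96281655-96281904 (plus strand), chr2:74762730-74762979 (plus strand), chr6:52260881-52261130 (minus strand) and chr2:74667975-74668224 (plus strand).
Hoxb8: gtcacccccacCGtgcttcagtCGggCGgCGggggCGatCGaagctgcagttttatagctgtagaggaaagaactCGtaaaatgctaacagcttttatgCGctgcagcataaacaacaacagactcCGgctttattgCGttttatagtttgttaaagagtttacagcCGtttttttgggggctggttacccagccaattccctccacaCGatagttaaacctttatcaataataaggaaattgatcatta
Hoxd1: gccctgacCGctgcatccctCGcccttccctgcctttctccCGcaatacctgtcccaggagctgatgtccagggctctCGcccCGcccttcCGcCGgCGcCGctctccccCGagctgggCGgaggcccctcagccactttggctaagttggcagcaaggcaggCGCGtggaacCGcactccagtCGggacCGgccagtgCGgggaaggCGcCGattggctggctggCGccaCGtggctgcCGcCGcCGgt
Hoxa13: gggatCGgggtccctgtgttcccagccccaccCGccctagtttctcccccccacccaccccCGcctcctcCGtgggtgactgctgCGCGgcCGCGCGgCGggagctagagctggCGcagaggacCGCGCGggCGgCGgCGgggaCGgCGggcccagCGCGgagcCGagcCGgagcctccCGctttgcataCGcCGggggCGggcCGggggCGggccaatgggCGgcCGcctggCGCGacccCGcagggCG
Hoxd13: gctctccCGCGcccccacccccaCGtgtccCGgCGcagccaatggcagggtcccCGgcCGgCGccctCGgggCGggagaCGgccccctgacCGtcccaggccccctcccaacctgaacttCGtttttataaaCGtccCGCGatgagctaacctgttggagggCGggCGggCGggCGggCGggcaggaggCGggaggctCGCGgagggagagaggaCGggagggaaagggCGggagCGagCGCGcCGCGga
Hoxb8 held 12 CG dinucleotides, Hoxd1 24, Hoxa13 35 and Hoxd13 31. Of the 39 Hox genes 22 matched a RefSeq promoter, and these held 2 to 35 with a median of 12, against a median of 6 over 32851 mouse promoters of the same length. On either strand the 250 bases held CCAAT in 59.1% of the 22 and 33.8% of all promoters, TATAAA in 13.6% and 12.4%, and TGATNNAT, a form of the site bound by Hox and Pbx proteins together, in 13.6% and 7.68%. Hoxb8 and Hoxd13 were among the 3 of 22 with TATAAA. Matches of letters are a description only.

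At the head end of the clusters, paralogs 1 to 3, cord exceeded paw for all 7 tested genes, beside 41.7% of all genes. Cord exceeded ganglia for 5 of these 7, beside 30.6% of all genes. The exception among well expressed genes was Hoxd1, a gene known for its part in wiring pain-sensing neurons of the mouse. Hoxd1 stood at 15.1, 22.1 and 20.4 CPM in ganglia, 1.00, 1.12 and 1.43 CPM in cord and 0.0598, 0.185 and 0 CPM in paw. Every ganglion sample thus lay above every other sample, and paw held 1, 3 and 0 reads. The log2 fold change of Hoxd1 was 4.02 ± 0.26, adjusted p = 1.68e-07 in ganglia against cord, and -7.79 ± 0.40 in paw against ganglia, which became -9.04 without paw sample 2. Sensory neuron markers moved with Hoxd1, at 3306 to 3917 CPM in ganglia and 3.41 to 4.07 CPM in paw; their part in its level was not tested.

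Hoxb2, which patterns the hindbrain segment of the facial nerve, was at 14.2, 13.2 and 11.8 CPM in cord, 4.87, 3.72 and 5.20 CPM in ganglia and 0.658, 0.864 and 0.824 CPM in paw. Hoxb3 followed the same order at 44.8, 43.1 and 38.6 CPM in cord, 12.6, 12.4 and 9.80 CPM in ganglia and 2.93, 2.84 and 3.30 CPM in paw. For both genes the 3 tissues were fully separate, with log2 fold changes in paw against cord of -4.05 ± 0.21 and -3.80 ± 0.14. Hoxd3 had 23.9, 21.7 and 26.0 CPM in cord, 9.20, 10.4 and 11.1 CPM in ganglia and 0.239, 0.679 and 1.00 CPM in paw, a fold change of -5.20 ± 0.27 between paw and cord. Hoxa3, needed for the thymus and parathyroid, differed less, with 12.8, 11.6 and 11 CPM in cord, 5.67, 4.58 and 5.59 CPM in ganglia and 3.53, 4.57 and 4.24 CPM in paw, and paw and ganglia were not called different (adjusted p = 0.058), though they were without DRG sample 2 (-0.44, adjusted p = 0.0346). Hoxa2, a regulator of the branchial arches, was at 3.24 ± 0.269 CPM in cord, 1.01 ± 0.184 CPM in ganglia and 1.61 ± 0.428 CPM in paw. Its excess in paw over ganglia (0.66 ± 0.28, adjusted p = 0.0443) lost its call in 10 of 17 alternative fits, 5 of them without 1 of DRG samples 1 and 3, cord sample 1 and paw samples 1 and 2, with adjusted p up to 0.149.

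Of the trunk paralogs, numbers 4 to 8, all 15 were tested. All 15 were lower in paw than in cord, 12 were lower in ganglia than in cord and 13 lower in paw than in ganglia. None was called higher in any of these comparisons, in which 41.7%, 30.6% and 40.8% of all genes tested were called lower. Hoxb8, known for dorsal spinal circuits and for microglia that control grooming, was the most abundant Hox transcript of cord. It stood at 255, 259 and 197 CPM in cord, 16.2, 20.03 and 15.9 CPM in ganglia and 0.718, 0.864 and 2.18 CPM in paw. Each step down was called, at -3.77 ± 0.23, adjusted p = 2.16e-07 in ganglia against cord and -3.78 ± 0.29, adjusted p = 5.15e-07 in paw against ganglia. Paw sample 3 was 3.03 times paw sample 1, and without it the difference of paw from ganglia was -4.45 and from cord -8.22, in place of -7.55 ± 0.30.

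The other trunk genes of HoxB had the same order with every tissue separate. Hoxb4, known from blood stem cells, was at 10.5, 11.4 and 10.0 CPM in cord, 6.21, 5.94 and 6.34 CPM in ganglia and 0.898, 0.679 and 0.765 CPM in paw. Hoxb5 was at 38.7, 40.4 and 33.6 CPM in cord, 16.0, 17.1 and 16.2 CPM in ganglia and 1.08, 1.23 and 1.59 CPM in paw. Hoxb6 was at 43.8, 45.8 and 41.1 CPM in cord, 10.1, 10.8 and 10.1 CPM in ganglia and 0.778, 1.30 and 1.71 CPM in paw. Paw was thus far below ganglia for all of these, with log2 fold changes of -2.97 ± 0.18, -3.65 ± 0.16 and -3.03 ± 0.19. Hoxb7 differed less, at 27.9, 28.5 and 21.8 CPM in cord, 7.86, 8.73 and 7.92 CPM in ganglia and 2.93, 3.95 and 3.30 CPM in paw, or -1.27 ± 0.16 in paw against ganglia. Over the cluster, all 9 tested HoxB genes were lower in ganglia than in cord and lower in paw than in cord. Of all genes tested, 30.6% and 41.7% were called lower in these 2 comparisons.

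Ganglia and cord were closer to each other for several HoxC trunk genes. Hoxc6, which helps set the identity of motor neurons at the forelimb level, was at 14.8, 12.5 and 13.6 CPM in ganglia, 11.7, 11.8 and 13 CPM in cord and 2.69, 2.96 and 4.36 CPM in paw. Ganglia and cord overlapped and were not called different (0.17 ± 0.16, adjusted p = 0.388), while paw was lower than cord (-1.86 ± 0.18). Hoxc4 showed the same relation, with 9.30, 12.3 and 9.58 CPM in cord, 7.42, 9.75 and 7.67 CPM in ganglia and 3.11, 3.76 and 3.24 CPM in paw (-0.33 ± 0.17, adjusted p = 0.108 in ganglia against cord, called in 2 of 17 alternative fits, among them the one without DRG sample 2, with adjusted p = 0.0434). Hoxc5 was at 3.80 ± 0.338 CPM in ganglia, 3.23 ± 0.468 CPM in cord and 2.30 ± 0.147 CPM in paw, and its small deficit in paw against cord (-0.49 ± 0.19, adjusted p = 0.0367) lost its call in 9 of 17 alternative fits, 5 of them without 1 of DRG sample 2, cord samples 2 and 3 and paw samples 1 and 2, with adjusted p up to 0.161. Hoxc8, a trunk gene used in motor neurons of the forelimb level, was at 13.5, 15.3 and 11.8 CPM in cord, 7.73, 10.1 and 9.26 CPM in ganglia and 3.83, 4.5 and 5.42 CPM in paw, all separate. In ganglia against cord, 5 of 9 HoxC genes were lower and 4 were not called. Over all genes tested 59.6% were called in this comparison, 29% higher and 30.6% lower.

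Hoxa5, a regulator of lung and phrenic development, was at 21.2, 24.7 and 20.3 CPM in cord, 6.66, 6.80 and 5.59 CPM in ganglia and 3.89, 4.57 and 5.30 CPM in paw. The step from ganglia to paw was small (-0.47 ± 0.16, adjusted p = 0.0172) and lost its call in 5 of 17 alternative fits, among them those without DRG sample 2, paw sample 1 or paw sample 2, with adjusted p up to 0.0701. Hoxa7 spanned a narrower range, at 26.1, 27.8 and 23.9 CPM in cord, 18.2, 20.7 and 19.0 CPM in ganglia and 16.2, 18.2 and 15.6 CPM in paw, and was the third highest Hox gene of paw per kilobase. Ganglia and paw overlapped for Hoxa7 (-0.21 ± 0.11, adjusted p = 0.0925). Hoxa4 was at 4.39 ± 0.336 CPM in cord, 2.38 ± 0.460 CPM in ganglia and 1.41 ± 0.228 CPM in paw. Hoxa6 was at 2.61 ± 1.18 CPM, 1.38 ± 0.196 CPM and 1.34 ± 0.137 CPM in the same order, and its deficits against cord (-0.90 ± 0.32 in ganglia and -0.94 ± 0.33 in paw) were -0.49 and -0.51 without cord sample 3, with adjusted p = 0.168 and 0.133. Leaving out DRG sample 2 or 3 also ended the first of these calls, and leaving out paw sample 2 or 3 the second. Cord sample 3 was the one richest in fibroblast markers, whose part in Hoxa6 was not tested.

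Hoxd4 and Hoxd8 were both lower in ganglia than in cord and lower again in paw. Hoxd8, a trunk gene, was at 41.4, 39.6 and 33.5 CPM in cord, 12.7, 17.2 and 17.7 CPM in ganglia and 6.52, 8.39 and 8.54 CPM in paw, or -1.27 ± 0.15 and -1.02 ± 0.16 at the 2 steps. Hoxd4, a hindbrain and neck gene, was at 17.7, 13.9 and 27.9 CPM in cord, 9.69, 7.58 and 11.4 CPM in ganglia and 2.63, 3.95 and 4.00 CPM in paw. Cord sample 3 was 2.01 times cord sample 2 for Hoxd4, and the tissues still did not overlap.

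Paralogs 9 and 10, which mark the lower trunk and the hind limb level, gave the largest sums per kilobase of the paralogs above 8 in all 3 tissues. Hoxc10 and Hoxd10, known for specifying motor neurons that serve the hind limb, were far higher in lumbar cord than elsewhere. Hoxc10 was at 98.8, 109 and 83.7 CPM in cord, 13, 17.9 and 14.6 CPM in ganglia and 20.5, 24.2 and 29.4 CPM in paw. Here paw exceeded ganglia (0.71 ± 0.16, adjusted p = 0.00172) without overlap. Hoxd10 was at 68.4, 77.7 and 62.0 CPM in cord, 5.76, 10.7 and 8.86 CPM in ganglia and 3.41, 4.07 and 4.95 CPM in paw, so that paw lay below ganglia (-1.02 ± 0.22, adjusted p = 0.0014). Hoxa10, their paralog, differed less between the nervous tissues, at 45.1, 54.0 and 41.7 CPM in cord, 27.6, 34.6 and 34.0 CPM in ganglia and 11, 15.4 and 19.1 CPM in paw. Ganglia were lower than cord (-0.55 ± 0.18, adjusted p = 0.0189), a call that ended without DRG sample 1 (-0.45, adjusted p = 0.0786) or without cord sample 2 (-0.45, adjusted p = 0.0695). The 3 paralogs therefore differed in log2 fold change between ganglia and cord from -3.04 ± 0.20 for Hoxd10 to -0.55 ± 0.18 for Hoxa10, a difference between genes that was not tested.

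Among paralogs 9, Hoxb9 was highest in cord, with 121, 122 and 109 CPM there, 24.9, 30.3 and 24.7 CPM in ganglia and 13.5, 10.9 and 8.36 CPM in paw. Hoxd9 followed the same order less steeply, with 22.7, 26.0 and 19.1 CPM in cord, 12.5, 16.7 and 15.5 CPM in ganglia and 6.22, 6.42 and 7.42 CPM in paw. Both were lower at each step and the tissues did not overlap. Hoxa9, a regulator of blood progenitors and of the lower trunk, went the other way, at 55.4, 45.7 and 37.2 CPM in paw, 27.9, 30.7 and 25.4 CPM in cord and 24.5, 27.7 and 24.95 CPM in ganglia. Every paw sample lay above all 6 nervous tissue samples, with fold changes of 0.84 ± 0.14, adjusted p = 0.000158 against ganglia and 0.72 ± 0.14, adjusted p = 0.000511 against cord, while ganglia and cord overlapped (adjusted p = 0.472). Hoxc9, which sets thoracic motor neuron identity, was level in all 3 tissues, at 4.5, 5.27 and 5.16 CPM in cord, 4.83, 5.69 and 5.50 CPM in ganglia and 5.09, 6.05 and 5.24 CPM in paw. It was the only one of the 37 tested genes called in none of the 3 comparisons, with a difference of 0.13 ± 0.16 (SE) in paw against cord.

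**Figure D4:**
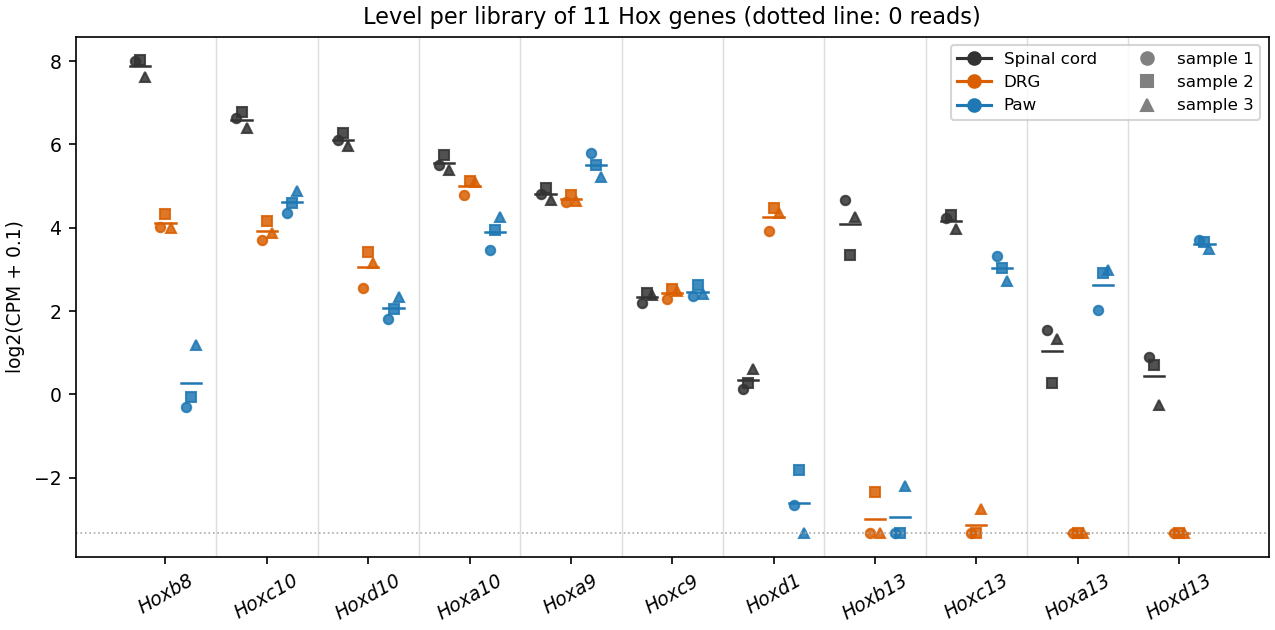
Level of 11 Hox genes in each library, as log2 of CPM with 0.1 added (y axis); colours are tissues, symbols are samples 1 to 3, bars are means on that scale and the dotted line is 0 reads. Hoxb8 drops at each step from cord to paw, Hoxc9 is level, Hoxd1 is highest in ganglia, and Hoxa13 and Hoxd13 are at 0 reads in all 3 ganglion samples.

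The tail end of the clusters, paralogs 11 to 13, separated ganglia from both other tissues. All 8 tested genes were lower in ganglia than in cord, and 6 were higher in paw than in ganglia, with Hoxd11 lower and Hoxb13 not called. Over all genes tested, 30.6% were lower in ganglia than in cord and 39.7% higher in paw than in ganglia. Hoxa11, needed for the lower limb segment and the uterus, was at 10.8, 12.1 and 9.93 CPM in cord, 7.00, 10.2 and 8.71 CPM in paw and 0.804, 0.676 and 0.446 CPM in ganglia. Hoxc11 was at 8.5, 10.1 and 7.12 CPM in cord, 7.06, 7.16 and 7.24 CPM in paw and 0.581, 0.869 and 0.792 CPM in ganglia. For both genes cord and paw overlapped and were not called different (adjusted p = 0.107 and 0.172), while ganglia were lower than cord (-4.07 ± 0.24 and -3.52 ± 0.21). Hoxd11, which works with Hoxa11 in the limb and kidney, was lowest in paw, at 8.30, 10.5 and 9.53 CPM in cord, 1.30, 2.75 and 1.53 CPM in ganglia and 0.180, 0.432 and 0.412 CPM in paw. Its fold change in paw against cord was -4.77 ± 0.36, adjusted p = 1.51e-07.

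Hoxc12 and Hoxc13 were found in cord and paw and had 0 or 1 read per library in ganglia. Hoxc13, known from hair and nail, was at 18.7, 19.6 and 15.7 CPM in cord and 9.93, 8.14 and 6.54 CPM in paw, with 0, 0 and 1 read in ganglia. Hoxc12 was at 14.3, 12.1 and 11.3 CPM in cord and 2.45, 2.96 and 3.00 CPM in paw, with 0 reads in ganglia. Cord was higher than paw for both, without overlap (-1.13 ± 0.19 and -2.16 ± 0.18 in paw against cord). Against 3 reads over the group, Hoxc12 was at least 266-fold higher in cord than in ganglia and at least 59.2-fold higher in paw than in ganglia. For Hoxc13 the ratio of cord to ganglia was 1148 with a 95% counting interval of 206 to 45367, and that of paw to ganglia was 519 (92.6 to 20543). Such bounds and intervals cover counting error only.

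Hoxb13, a gene of the tail and the prostate, was confined to cord among these libraries apart from 2 reads in ganglia and 2 in paw. In cord it was at 25.4, 10.1 and 19.0 CPM, from 507, 216 and 331 reads, so that sample 1 was 2.52 times sample 2. The ratio of cord to ganglia was 567 (157 to 4686) and of cord to paw 447 (123 to 3694). Cord sample 1 had the most of the red cell gene Slc4a1 (60.5 CPM against 4.15 and 6.66), whose part in Hoxb13 was not tested. Cord sample 2, lowest for Hoxb13, was also lowest of the 3 for Hoxa13. Hoxc13 was instead highest in cord sample 2 (19.6 CPM), and Hoxd13 was lowest in cord sample 3 (0.746 CPM).

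Hoxa13 and Hoxd13, the genes of the outermost limb that are altered in inherited digit malformations, were highest in paw. Hoxd13 was at 12.9, 12.5 and 11.1 CPM in paw and 1.75, 1.54 and 0.746 CPM in cord, with 0 reads in ganglia. Hoxa13 was at 3.95, 7.40 and 7.83 CPM in paw and 2.80, 1.12 and 2.41 CPM in cord, again with 0 reads in ganglia. No paw sample overlapped a cord sample for either gene, and the fold changes in paw against cord were 3.15 ± 0.27, adjusted p = 2.46e-06 for Hoxd13 and 1.61 ± 0.38, adjusted p = 0.00312 for Hoxa13. Against 3 reads over the group, paw was at least 257-fold higher than ganglia for Hoxd13 and at least 135-fold higher for Hoxa13, and cord at least 29.0-fold and 43.7-fold higher. Their paralogs Hoxc13 and Hoxb13 were lower in paw than in cord, so the 4 genes numbered 13 differed in direction by cluster.

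Samples of a tissue also differed among themselves. For genes with at least 10 reads in every library of a tissue, the median ratio of the highest to the lowest sample was 1.25, 1.28 and 1.35 for Hox genes in cord, ganglia and paw, and 1.22, 1.21 and 1.203 for all genes. In cord the widest ratios belonged to Hoxb13 (2.52), Hoxa13 (2.502), Hoxa6 (2.46), Hoxd13 (2.35) and Hoxd4 (2.01). Sample 1 was the highest for Hoxb13, Hoxa13 and Hoxd13, and sample 3 for Hoxa6 and Hoxd4. In ganglia Hoxd11 (2.12) and Hoxd10 (1.85) varied most, both highest in sample 2, which was the highest for 20 of 31 Hox genes. The 5 skeletal muscle markers summed to 525, 791 and 28.7 CPM in ganglion samples 1 to 3. In the same order 4 marrow neutrophil markers summed to 127, 288 and 103 CPM, and 6 fibroblast markers to 2288, 1526 and 1544 CPM. In paw sample 3 was highest for 17 of 32, among them Hoxb8 (3.03), Hoxb6 (2.19), Hoxa13 (1.98) and Hoxa10 (1.74), while Hoxa9 (1.49) and Hoxb9 (1.62) were highest in sample 1. The 5 keratinocyte markers also summed highest in paw sample 1, at 49494 CPM against 32659 and 35115 CPM, though Lor was lowest there. The 5 skeletal muscle markers summed lowest there, at 12557 CPM against 13492 and 16163 CPM. Muscle genes were mixed, with Acta1 lowest in sample 1 (2268 CPM against 3539 and 3909) and Myh4 highest (2447 CPM against 443 and 924). The part of these cell types in the Hox differences was not tested.

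Hox proteins act with TALE homeodomain partners, and 11 such genes were all tested. In ganglia against cord 3 were higher and 6 lower, in paw against ganglia 3 higher and 7 lower, and in paw against cord 2 higher and 8 lower, with median log2 fold changes of -0.36, -0.98 and -1.06. The shares called, 81.8%, 90.9% and 90.9%, stood beside 59.6%, 80.5% and 81.6% of all genes tested. Meis2 stood at 95.4 ± 4.54 CPM in cord, 30.3 ± 2.78 CPM in ganglia and 3.58 ± 0.775 CPM in paw (SD, n = 3), a log2 fold change of -4.74 ± 0.15 between paw and cord. Meis1 had log2 fold changes of -2.27 ± 0.11 in ganglia against cord and 1.21 ± 0.11 in paw against ganglia, and Meis3 had -3.41 ± 0.17 in paw against ganglia. Pbx4 was at 0.541 ± 0.363 CPM in paw and 8.51 ± 1.37 CPM in cord. Pknox2, a Prep protein, and Tgif2 were higher in ganglia than in cord by 0.74 ± 0.17 and 1.52 ± 0.24, and Tgif1 was higher in paw than in cord by 1.45 ± 0.19. Pbx2 was not called different between ganglia and cord (0.08 ± 0.11), nor Pknox1 between paw and ganglia (-0.08 ± 0.13).

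Chromatin regulators of Hox clusters include genes that hold the clusters silent (Polycomb) or open (trithorax). Of 26 chromatin regulators tested, 3 were higher and 11 lower in ganglia than in cord. In paw against ganglia 12 were higher and 8 lower, and in paw against cord 11 were higher and 9 lower. Medians were -0.23, 0.19 and 0.19 in these comparisons. The shares called, 53.8%, 76.9% and 76.9%, were near those of all genes (59.6%, 80.5% and 81.6%), so the list did not stand out. Ezh2, the Polycomb methyltransferase of dividing cells, was higher in paw than in ganglia by 2.10 ± 0.17 and than in cord by 1.72 ± 0.16, and Cbx2, a Polycomb reader, higher in ganglia than in cord by 1.04 ± 0.18. Cbx6 was lower in paw than in cord (-2.85 ± 0.11) and Phc1 lower in ganglia than in cord (-1.90 ± 0.091). Mll1, the trithorax enzyme that keeps Hox genes active, stood at 121 ± 19.9 CPM in cord, 116 ± 24.1 CPM in ganglia and 122 ± 18.7 CPM in paw and was called in none of the comparisons.

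Upstream regulators of the Hox code include the Cdx genes and the retinoic acid pathway. Of 21 found in the files 16 were tested, and Cdx2 and Cdx4, which start the posterior genes in the embryo, had 0 reads in all 9 libraries. In ganglia against cord 6 were higher and 7 lower, in paw against ganglia 7 and 5, and in paw against cord 8 and 6, with medians of -0.27, 0.26 and 0.22. The shares called were 81.2%, 75% and 87.5%, beside 59.6%, 80.5% and 81.6% of all genes, so those in the paw comparisons were near the background. Crabp2, which carries retinoic acid to its receptors, was at 121 ± 18.7 CPM in paw, 3.69 ± 1.11 CPM in ganglia and 1.56 ± 0.546 CPM in cord, and Cyp26b1, which breaks retinoic acid down, at 92.1 ± 13.8 CPM, 11.4 ± 1.75 CPM and 5.23 ± 1.13 CPM in the same order. Gdf11, a signal for the change from trunk to tail, was lower in paw than in cord (-4.12 ± 0.22), and Gbx2, a gene of the border between midbrain and hindbrain, had 54, 61 and 40 reads in cord, 1, 1 and 0 in ganglia and 1, 2 and 1 in paw.

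Genes that mark other coordinates of the body were set beside the Hox genes. Of 19 tested limb and body-wall patterning genes, 17 were higher and 1 lower in paw than in cord (median 3.41), 16 higher and 3 lower in paw than in ganglia (median 3.64), and 8 higher and 4 lower in ganglia than in cord (median 0.49), against 81.6%, 80.5% and 59.6% of all genes called in either direction. Levels were far apart for Tbx15 at 162 ± 33.2 CPM in paw and 0.365 ± 0.131 CPM in cord and Dlx5 at 19.8 ± 0.533 CPM and 0.0513 ± 0.00550 CPM. Tbx4, the hind limb gene, stood at 7.44 ± 1.95 CPM in paw, and Tbx5, the forelimb gene, at 1.14 ± 0.186 CPM, the latter with 0 reads in the other tissues; both were named for their role after the values were seen. Among 10 genes of fore- and midbrain, where Hox genes are silent, Otx2 and Nkx2-1 had 0 reads in all 9 libraries, and of 4 tested, 3 were lower in ganglia than in cord, 2 were higher and 1 lower in paw than in ganglia, and 2 were higher and 2 lower in paw than in cord. The shares of these 4 called were 75%, 75% and 100%, beside 59.6%, 80.5% and 81.6% of all genes. Otx1 reached 28.9 ± 3.80 CPM in paw and Neurod6 6.12 ± 0.741 CPM in cord. Of 14 tested identity genes of spinal neurons that Hox genes help to pattern, 12 were lower in paw than in cord and 1 higher (median -6.19), and 8 lower in paw than in ganglia and 2 higher (median -1.69). In ganglia against cord 9 were lower and 3 higher (median -4.48), and the shares called were 92.9%, 71.4% and 85.7% in these comparisons against 81.6%, 80.5% and 59.6% of all genes. Among them were Slc18a3 of motor neurons at 0.123 ± 0.113 CPM in ganglia and 50.9 ± 12.5 CPM in cord, and Isl1, shared by sensory and motor neurons, at 91.8 ± 10.6 CPM and 1.89 ± 0.298 CPM.

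Other transcripts of the clusters were counted as well. Hoxa11as, antisense to Hoxa11, was at 10.4 ± 0.992 CPM in cord, 0.478 ± 0.148 CPM in ganglia and 9.19 ± 1.02 CPM in paw, beside Hoxa11 at 10.9 ± 1.09 CPM, 0.642 ± 0.182 CPM and 8.65 ± 1.62 CPM. Libraries were stranded but the strand setting of the counting is not given in the sources used here, so reads of Hoxa11 and Hoxa11as cannot be told apart. Evx1, which lies beyond Hoxa13 and marks spinal interneurons, had 49, 62 and 25 reads in cord, 1, 1 and 3 in paw and 0 in every ganglion library. Of the 3 such transcripts that could be tested, 3 were lower in ganglia than in cord, 2 higher in paw than in ganglia and 2 lower in paw than in cord. The last 2 counts were 1 without paw sample 3, and the last also without cord sample 1. The shares called were 100%, 66.7% and 66.7%, beside 59.6%, 80.5% and 81.6% of all genes tested.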

How the data were processed

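The Hox genes and the other gene lists were chosen with earlier results of these data known. The labels' protocols describe oligo-dT selection from roughly 500 ng of RNA and stranded dUTP libraries read as single 50 bp ends. Tools named in the submitters' processing notes are bcl2fastq, TopHat2 and HTSeq, with the mm9 build, and no version, gene model or strand setting is named there. The deposited values are unnormalized counts of reads for 22609 gene symbols. Another 5 rows summed up unassigned reads, 42.9 to 59.3% of each file and mostly reads with several alignments, and were left out of library sizes and tests.

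Tissue groups come from the sample titles. Within each tissue, pairs of samples differed beyond sampling noise (chi-square per degree of freedom 7.30 to 36.7), and the labels name no batch. One edgeR 4.0.16 model (R 4.3.3, filterByExpr by tissue, TMM scaling, robust quasi-likelihood fit, 6 residual degrees of freedom) covered all 9 libraries and 16091 genes. The same fit was also run on simulated counts in which, unlike here, most genes did not differ between tissues, so that run does not vouch for the calls above. The SE of a log2 fold change is its size over the square root of the F statistic. CPM is per TMM-scaled library size. Transcript lengths are those of the longest RefSeq-linked coding transcript in GENCODE M21, in which Hox genes shared no exon base. A fold against 0 reads is a lower bound against 3 reads over the group. Alternatives were DESeq2 1.42.0, limma 3.58.1, other scaling, no filter, 2 tissues only, a replicate block, each sample left out, reads not divided by length and other zones.

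Each library's value is given for Hox genes with a mean of at least 5 CPM in a tissue. The naming rule for the other lists takes the 2 largest called changes in each direction and the most expressed gene not called; only some of these are printed, beside a few genes chosen after their values were seen. Values of a few single genes are not reported here, and counts over lists include them.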

Additional observations from a re-analysis of the deposited data

How the results depend on the processing

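Counts of called Hox genes kept within 1.5 times of the values above under DESeq2, limma-voom, relative log expression, upper quartile or no scaling factors, no filter on low counts, fits of only 2 tissues, the replicate block and leaving out each sample. In ganglia against cord they ranged over 1 higher and 29 to 31 lower, in paw against ganglia 8 to 9 higher and 22 to 23 lower, and in paw against cord 3 higher and 29 to 31 lower. Calls of single genes moved for Hoxa2, Hoxa3, Hoxa5, Hoxa6, Hoxa10, Hoxc4 and Hoxc5, whose values stand above. The list of other cluster transcripts ranged from 1 to 2 called in paw against ganglia and in paw against cord. Changes of sign occurred for Hoxa6, Hoxb13 and Hoxc9 in comparisons where they were not called. Leaving out 1 sample gave, in paw against ganglia, Hoxa6 -0.14 to 0.075, Hoxb13 -2.56 to 2.83 and Hoxc9 -0.040 to 0.10. Hoxa6 in paw against ganglia was 0.075 with upper quartile factors and 0.066 with no scaling factors; these settings moved the median of all genes there by 0.12 (log2). In each of these cases the cause was not tested.

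Shares of the Hox signal by position moved by more than their SD in part when reads were not divided by length, and by construction when the zones were drawn at 1 to 4, 5 to 9 and 10 to 13. In the order cord, ganglia, paw, undivided reads gave 9.04, 16.0, 4.68% for paralogs 1 to 3, 47.3, 44.6, 25.1% for 4 to 8 and 43.6, 39.4, 70.2% for 9 to 13. By cluster they gave 14.9, 28.7, 46.9% for HoxA, 50.9, 30.5, 10.1% for HoxB, 16.8, 16.8, 27.3% for HoxC and 17.4, 23.99, 15.7% for HoxD, and a mean paralog number of 7.90, 6.85, 8.89. The other zones gave 11.4, 22.7, 8.39%, 57.6, 59.6, 48.2% and 31.0, 17.6, 43.4%. The order of the tissues in the mean paralog number and in the shares at both ends was the same in all of these.

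Samples of different tissues share the numbers 1 to 3, and a fit with the number as a replicate block called 1 higher and 30 lower in ganglia against cord, 8 and 23 in paw against ganglia, and 3 and 31 in paw against cord. The block ended 1 call of a Hox gene, Hoxa2 in paw against ganglia (0.66, adjusted p = 0.0634). Same-numbered samples correlated at -0.13 to 0.27 in their deviations from the tissue means, with 2 of 9 pairs over 0.1. Differently numbered samples correlated at -0.45 to 0.34, with 4 of 18 pairs over 0.1. The numbers were not taken as pairs, but with 3 samples per tissue such correlations cannot show whether they stand for shared mice. Below about 3 reads, as for Hoxb1, Hoxd12 and, outside cord, Hoxb13, depth sets the limit and no difference could be shown.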

Other observations

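The Hox clusters also carry genes for microRNAs, short RNAs that repress messages they pair with through their seed, bases 2 to 8. Mature forms were not measured in these poly(A)-selected libraries. Of the host symbols, Mir196a-1 had 34, 26 and 23 reads in cord, 14, 22 and 16 in ganglia and 15, 12 and 9 in paw, and Mir10a, Mir10b, Mir196a-2 and Mir196b at most 5 reads in any library. The mature sequences are shown because matches to their seeds were sought in the Hox messages. They are in RefSeq spelling, 5′ to 3′, with the seed in capitals.
miR-10a-5p: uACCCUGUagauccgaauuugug
miR-10b-5p: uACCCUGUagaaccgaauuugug
miR-196a-5p: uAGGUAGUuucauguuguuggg
miR-196b-5p: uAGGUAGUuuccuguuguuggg
The 2 miR-196 forms share one seed and the 2 miR-10 forms another. Past the stop codon of the longest RefSeq-linked GENCODE M21 transcript on GRCm38, the miR-196 match ACTACCT occurred in 8 of the 39 Hox genes (20.5%) and in 5.29% of 20486 mouse transcripts. The 8 were Hoxa4, Hoxa5, Hoxa7, Hoxa9, Hoxb1, Hoxb6, Hoxb7 and Hoxc8. The miR-10 match ACAGGGT occurred in 4 Hox genes (10.3%; Hoxa3, Hoxb3 and Hoxd1 among them) and in 11% of transcripts. Hox genes were chosen as a family and share ancestry, so no test was made. A site of Hoxa7, 1 of 4 in that gene, one of Hoxa9 and one of Hoxb7 read as follows, with the match in capitals.
Hoxa7: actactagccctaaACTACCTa
Hoxa9: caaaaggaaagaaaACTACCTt
Hoxb7: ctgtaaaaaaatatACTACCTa
Of the 7 genes with the miR-196 match that could be tested, 6 were lower in paw than in cord and 1 higher, beside 31 lower and 3 higher of all 37 Hox genes. Of the same 7, 6 were lower in ganglia than in cord (30 of 37), and in paw against ganglia 5 were lower and 1 higher (23 and 9 of 37).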
